A study of Mus musculus with 9 samples.

Results

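Lung macrophages taken 24 h after ozone were compared with macrophages of mice that had breathed air, gene by gene. The comparison uses 6 of the 9 libraries of the series, 3 mice per group, and the 15713 genes of 54281 in the table that passed a filter on low counts. All animals were female wild-type mice of 12 weeks from Jackson Labs, and the labels name no strain. Mice breathed air or 0.8 ppm ozone for 3 h in a Plexiglas chamber that enclosed the whole animal, and the ozone mice were killed 24 h afterwards with ketamine and xylazine. A further 3 ozone mice were killed at 72 h; their libraries entered the fit to estimate the spread and are quoted only beside the 24 h values. Cells were washed out of the lung by bronchoalveolar lavage with massage, red cells were lysed, and a stranded total RNA kit was used on RNA with an integrity number of at least 8.8. The design text gives 3 mice per group, read here as 1 mouse per library, so p-values measure the spread between mice. The labels name no sorting step between lavage and RNA extraction.

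Alveolar macrophages live in the air spaces, clear surfactant and inhaled material, and keep up their numbers mostly by dividing in place. Their surfactant-clearing programme is driven by GM-CSF and the nuclear receptor PPARγ. Ozone is an oxidant gas that injures the airway and alveolar lining. Before a cell divides, MCM helicases are loaded on DNA, polymerases and the clamp PCNA copy it, and chaperones such as chromatin assembly factor 1 pack the new DNA into nucleosomes. Genes of this S phase programme are known targets of E2F transcription factors. Sterol synthesis is switched on by SREBP2 when cell cholesterol is low, and the daily clock runs on the activators BMAL1 (Arntl) and CLOCK and on repressors that include REV-ERBα and REV-ERBβ (Nr1d1 and Nr1d2).

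Library totals were 47095543 to 60248305 counts, and levels are CPM, counts scaled to a library of fixed size, on TMM-scaled library sizes, listed in the order of replicates 1, 2 and 3. The summed level of 15 resident alveolar macrophage markers, among them Siglecf, Ear1 and Krt79, stood at 35928, 33504.5 and 34971 CPM in air. At 24 h it was 29306, 23027 and 31854 CPM, and all 15 genes were expressed in every library. Most of that sum was Chil3, which is also on the monocyte list. Chil3 stood at 24837, 22245 and 24041 CPM in air and 18861, 14809 and 21678 CPM at 24 h. Of the 15 genes, 13 had a negative log2 fold change and 2, Car4 among them, a positive one. Without replicate 2 at 24 h these counts were 11 and 4. Replicate 2 at 24 h stood apart. It carried 2083 CPM of 17 B cell markers, where the other 5 libraries had 159 to 181 CPM, 1380.5 CPM of 20 T cell markers against 11.4 to 29.6 CPM, and 789 CPM of 13 serous cavity macrophage markers against 30.1 to 55.1 CPM. Mitochondrially encoded genes took 5.25% of its counts and 2.71% to 2.87% of those of the other 5. Replicate 1 at 72 h, with 6.18% mitochondrial counts, also carried lymphocyte markers. Values without replicate 2 are therefore given for the called genes and for the gene lists, and for other genes with a printed fold change wherever they turned its sign or moved it by over 1.5 times. Most of the B cell sum in the other 5 libraries was Cd22, which macrophages share. Of the 17 B cell markers, 13 stood above every air mouse in replicates 1 and 3 at 24 h as well. The median log2 fold change of these 17 was 1.95 without replicate 2. A smaller B cell difference therefore remained in the values without replicate 2. A second departure was in air replicate 2, whose level of Xist, the RNA that coats the inactive X chromosome of female cells, was 2.42 CPM, where the other 8 libraries had 887 to 1482 CPM. The X-linked gene Kdm6a was 36.4 CPM there and 58.6 to 74.8 CPM elsewhere, and the Y-linked Ddx3y and Eif2s3y had 0 counts in all 9, so values without air replicate 2 are given where they moved a printed fold change or list median by over 1.5 times.

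**Figure D1:**
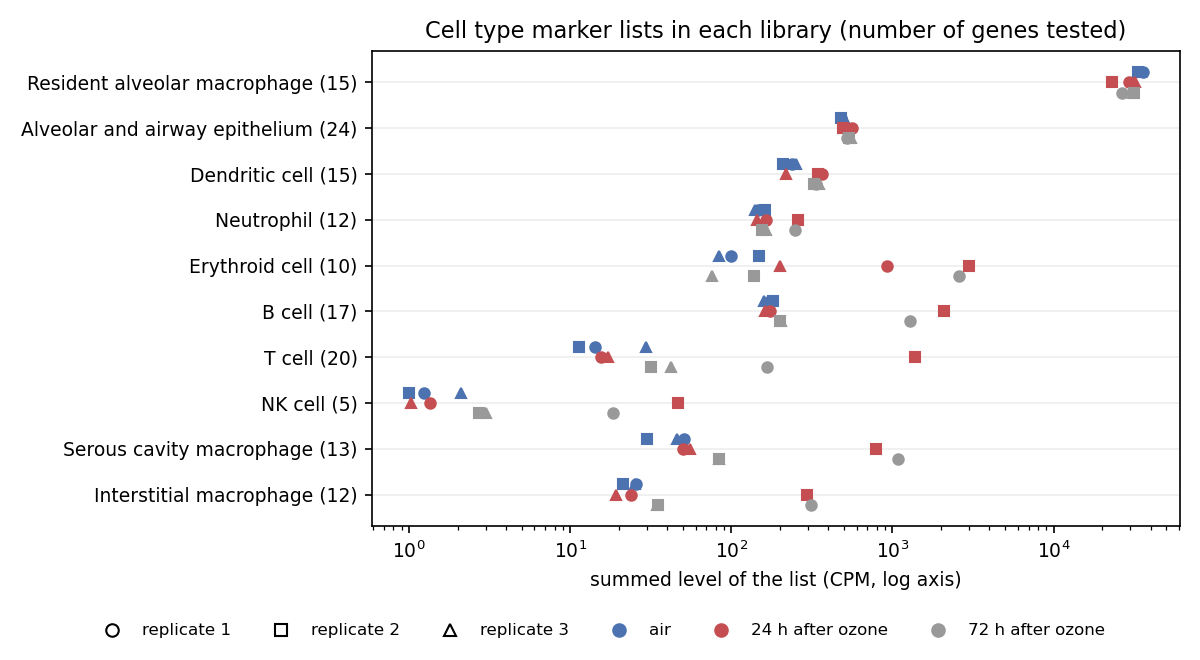
Summed level of each marker list in CPM on a log axis, 1 point per library, with blue for air, red for 24 h and grey for 72 h after ozone and the marker shape for the replicate. The 24 h square (replicate 2) lies at 2083 CPM for B cell and 789 CPM for serous cavity macrophage markers, well to the right of the other 5 air and 24 h libraries.

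A single gene passed the test. H1f0 encodes the linker histone H1.0, which accumulates in cells that have stopped dividing (ENSMUSG00000096210.2, chromosome 15, 79028450 to 79030504 on GRCm38). It stood at 34.3, 34.1 and 35.9 CPM in the air mice and at 23.3, 24.2 and 23.6 CPM at 24 h. Each ozone mouse lay below each air mouse, and the mice of a group lay close together. The gene fell by 0.55 ± 0.05 on the log2 scale (edgeR quasi-likelihood test, Benjamini-Hochberg adjusted p = 0.0225). It was the 1 called gene of 15713, or 0.00636% of those tested. With 1 of the 9 libraries left out at a time its log2 fold change ranged from -0.57 to -0.53, but it was called only when the library left out was replicate 2 at 24 h (adjusted p = 0.0301). The adjusted p reached 0.133 in the other 8 fits. At 72 h, set against the same air mice, H1f0 stood at 27.2, 27.3 and 27.1 CPM.

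Without replicate 2 at 24 h, 2 genes were called, or 0.0125% of 16043 tested. The second was Mdp1, which encodes a magnesium-dependent phosphatase. It stood at 29.9, 29.3 and 29.0 CPM in air and at 19.3, 26.7 and 19.1 CPM at 24 h. Replicate 2 was the high library of its group, and the other 2 ozone mice lay well below every air mouse. The log2 fold change was -0.44 ± 0.12 with all 3 mice (edgeR adjusted p = 0.186) and -0.62 ± 0.06 without replicate 2 (adjusted p = 0.0301).

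Leaving out both libraries that carried lymphocyte markers, replicate 2 at 24 h and replicate 1 at 72 h, gave 7 called genes, 0.0444% of 15753 tested, with 4 higher and 3 lower. Besides H1f0 and Mdp1 they were Fasn, the multi-enzyme protein that makes palmitate, Spp1, which encodes osteopontin, the neutrophil granule gene Ngp, the cold-inducible RNA-binding protein Cirbp, and AI506816, a locus with a clone name. Fasn stood at 96.4, 98.2 and 112 CPM in air and 180, 139 and 168 CPM at 24 h (0.77 ± 0.08 without both, adjusted p = 0.0241). For Spp1 the levels were 314, 292 and 302 CPM in air and 492, 395 and 484 CPM at 24 h (0.69 ± 0.07, adjusted p = 0.0241). Neither gene overlapped between the groups, and in both the lymphocyte-carrying mouse was the lowest of the ozone mice. AI506816 stood at 68.2, 69.4 and 79.5 CPM in air and 110, 125 and 115 CPM at 24 h. When the same 2 libraries were left out but the gene set of the 9-library fit was kept, which was chosen with the data in view, 24 genes were called, 0.153% of 15713, with 16 higher and 8 lower. The 17 that this added had an adjusted p of 0.0498, close to the threshold. Among them, named after their values were seen, were Chaf1a, Cad, Slc2a1, Lss, Nr1d2 and Cxcl10 on the high side, and Slpi, Mgst1, Dnah11 and Cd37 on the low side. Cd37, a leukocyte tetraspanin, stood at 45.8, 48.4 and 47.1 CPM in air and 33.3, 153 and 34.9 CPM at 24 h, so that its direction turned with the library left out.

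**Figure D2:**
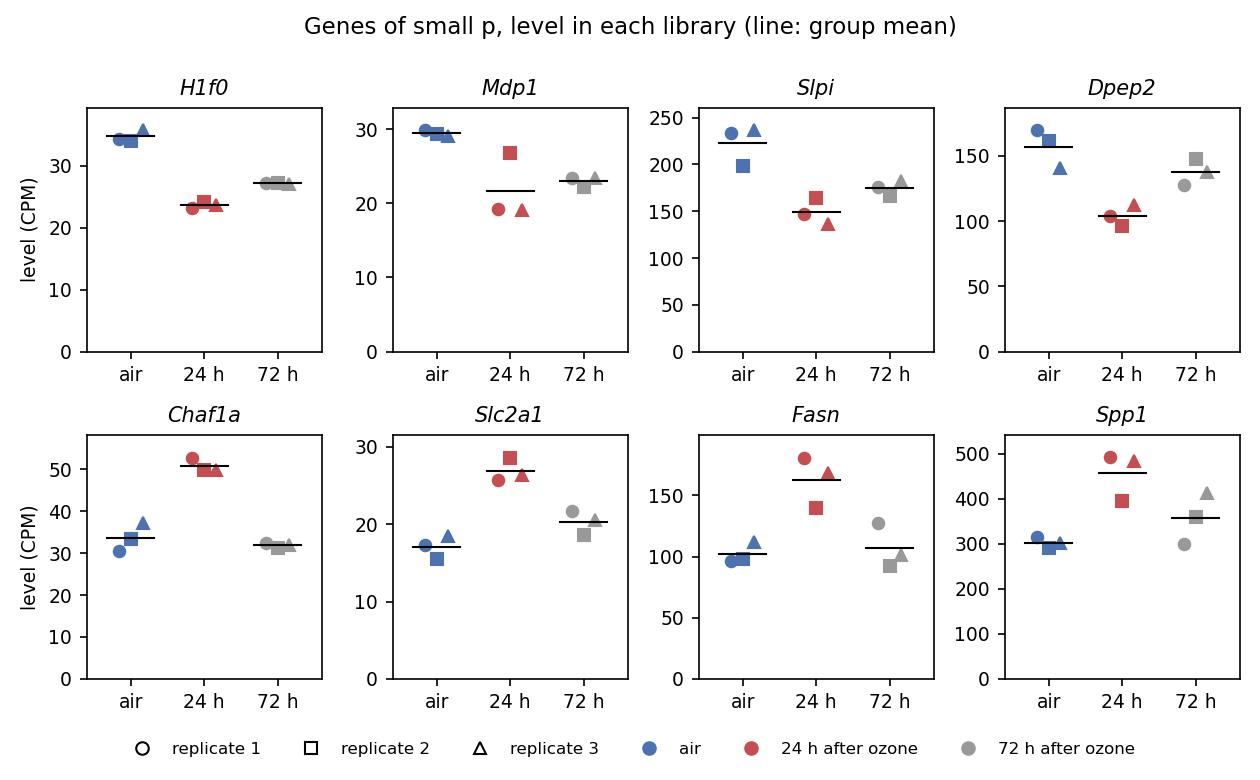
Level in CPM of 8 genes in each library, with air, 24 h and 72 h groups on the horizontal axis, the marker shape for the replicate and a line at the group mean. H1f0 lies at 23.3 to 24.2 CPM at 24 h, below the 34.1 to 35.9 CPM of air, and the 24 h square of Mdp1, Fasn and Spp1 lies closer to air than the other 2 ozone mice.

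The call rate was low in relation to the number of small p-values. Before adjustment, 2314 genes had p under 0.05, 1364 higher and 950 lower, and 1741 did without replicate 2. Limma voom called 1 gene in the 9 libraries. DESeq2 called 422 genes higher, 3.43% of the 12298 to which it gave an adjusted p, and 196 lower, 1.59%. Without replicate 2 it called 322 higher, 2.86% of 11266, and 97 lower, 0.861%. Of its 618 and 419 calls, 318 were shared, all 318 in the same direction. All 3 ozone mice lay above all 3 air mice for 1629 genes (10.4%) and below them for 1424 (9.06%). Of the 3 air mice and the other 2 ozone mice alone, 2344 genes (14.9%) were higher without overlap and 2255 (14.4%) lower. These shares are the background for the gene groups that follow, and the median log2 fold change over all genes tested was 0.01. No list described below held a gene called by edgeR in the 9-library fit, other than the histone list with H1f0.

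DNA replication genes stood higher at 24 h as a group, although none passed the edgeR test in the 9 libraries. All 46 members of the replication and S phase list were tested, all 46 had a positive log2 fold change, and the median was 0.53. In 42 of 46 every ozone mouse lay above every air mouse, against 10.4% of all genes, and DESeq2 called 36 of 46 higher, against 3.43%. Without replicate 2 the median was 0.49, 42 of 46 did not overlap and DESeq2 called 30 higher. Without air replicate 2 the median was 0.52. The median of the list relative to the air mean was 0.53, 0.58 and 0.44 in the 3 ozone mice and -0.20, 0.02 and 0.17 in the air mice. The air mice were spread more widely than the ozone mice, and the lowest ozone mouse lay above the highest air mouse. In the 72 h mice, compared with the same air mice, the values were -0.09, -0.27 and -0.16. In bulk RNA a larger share of dividing cells and more of these RNAs per cell cannot be told apart.

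Chaf1a, the large subunit of chromatin assembly factor 1, had the smallest p of the list. It stood at 30.5, 33.4 and 37.1 CPM in air and 52.8, 49.8 and 49.9 CPM at 24 h, with no overlap (0.59 ± 0.07, edgeR adjusted p = 0.112, and 0.103 without replicate 2). Cdc6, which loads the MCM helicase at origins, stood at 11.2, 12.4 and 13.9 CPM in air and 20.1, 22.1 and 19.6 CPM at 24 h (0.72 ± 0.10, adjusted p = 0.112). Pole2, a subunit of the leading-strand polymerase, was 8.47, 9.27 and 10.2 CPM and then 13.7, 14.1 and 13.4 CPM (0.56 ± 0.09, adjusted p = 0.112). In each of these 3 genes air replicate 1 was the lowest library and the ozone mice lay close together.

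The 4 promoter stretches of the list with the smallest gene p that hold an E2F letter string outside annotated exons are shown, because E2F is the known regulator of this group. They come from RefSeq gene starts on GRCm38.p6, read 5′ to 3′ on the gene's strand, and capitals mark the string. Stretches on 1 chromosome were left out before the choice. The search covered the 250 bases before each start for TTTGGCGC, TTTCCCGC, TTTGGCGG or TTTCCCGG on both strands, and matches may overlap.
Chaf1a (chr17:56040342-56040409, + strand): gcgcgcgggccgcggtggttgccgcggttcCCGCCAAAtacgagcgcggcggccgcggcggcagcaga
Cdc6 (chr11:98907983-98908050, + strand): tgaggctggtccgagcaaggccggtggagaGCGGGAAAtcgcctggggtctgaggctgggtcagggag
Pola1 (chrX:93632256-93632323, - strand): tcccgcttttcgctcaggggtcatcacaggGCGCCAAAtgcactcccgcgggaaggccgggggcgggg
Mcm6 (chr1:128359715-128359782, - strand): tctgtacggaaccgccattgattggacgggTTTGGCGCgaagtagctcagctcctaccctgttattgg
The string starts 44, 138, 138 and 47 bases before the RefSeq start in the order shown, and none of the 4 stretches overlaps an exon of GENCODE M21. Of the 37 list members with an entry in the promoter table, 9 (24.3%) held 1 of the 4 letter strings, against 581 of the 10760 tested genes with an entry (5.4%). A match is a string of letters and was not tested as a binding site.

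Within the replication list, the helicase subunits had similar differences. Mcm2 was 43.1, 53.6 and 61.9 CPM in air and 89.9, 90.0 and 84.9 CPM at 24 h. Mcm5 was 48.3, 60.4 and 67 CPM in air and 99.96, 99.2 and 87.7 CPM at 24 h. Mcm6 was 84.5, 107 and 114 CPM in air and 163, 168 and 146 CPM at 24 h. None of Mcm2 to Mcm7 overlapped between the groups, and their log2 fold changes were 0.51 to 0.74, with adjusted p = 0.117 in each. The MCM genes were picked from the list after their values were seen. The helicase partners Cdc45 (0.69) and Gins1 (0.74) lay in the same range, whereas Gins2 and Gins4 were at 0.30 and 0.22. Of the enzymes that supply DNA precursors, thymidylate synthase Tyms was at 0.66 and thymidine kinase Tk1 at 0.26, the latter with overlap between the groups. At the low end stood Rpa3 (0.14, and 0.03 without replicate 2 or 0.08 without air replicate 2), the small subunit of the single-strand binding protein, which overlapped as well. Pcna, the sliding clamp, was 232, 248 and 278 CPM in air and 323, 354 and 312 CPM at 24 h (0.38 ± 0.09, adjusted p = 0.124).

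Genes of G2 and mitosis, none of them on the replication list, also stood higher. Of 51 members tested, 49 had a positive log2 fold change, the median was 0.49, all ozone mice lay above all air mice in 44, and DESeq2 called 35 higher. With replicate 2 left out, the median was 0.47, with 46 not overlapping and 26 called higher by DESeq2. Cenpe, a kinesin of the kinetochore, was 26.8, 32.0 and 33.3 CPM in air and 41.7, 40.4 and 45.4 CPM at 24 h (0.47 ± 0.09, edgeR adjusted p = 0.117). Top2a, which untangles chromosomes, was 111, 128 and 152 CPM in air and 189, 199 and 199 CPM at 24 h (0.59 ± 0.11, adjusted p = 0.117). The proliferation marker Mki67 was 183, 213 and 221 CPM in air and 278, 260 and 306 CPM at 24 h. All 3 genes were apart between the groups, and air replicate 1 was the lowest library in each.

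The regulators upstream of S phase were more mixed. The list of G1 cyclins, CDK inhibitors, E2F and retinoblastoma proteins had a median of 0.18 over 27 genes, with 10 higher and 1 lower without overlap, and DESeq2 called 3 higher. With replicate 2 left out the median was 0.18 and DESeq2 called 2. Ccnd3, a D cyclin, was 70.4, 78.5 and 101 CPM in air and 114, 199 and 138 CPM at 24 h, highest in replicate 2 (0.85 ± 0.21, edgeR adjusted p = 0.163, and 0.60 without that library). Ccne1, the cyclin of S phase entry, was at 0.61 and E2f7, a repressor made in S phase, at 0.51. E2f1 itself stood at 66, 70.1 and 70.7 CPM in air and 70.3, 69.1 and 75.2 CPM at 24 h, with overlap. Cdk6 was the 1 member that lay lower without overlap, by a narrow margin, at 301, 284 and 226 CPM in air and 192, 147 and 226 CPM at 24 h (-0.52, adjusted p = 0.241). The CDK inhibitor Cdkn1a was 80.9, 89.8 and 93.8 CPM in air and 109, 96.7 and 120 CPM at 24 h (0.30 ± 0.10, adjusted p = 0.239).

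Of 16 histone variant and linker histone genes tested, 11 had a positive log2 fold change and the median was 0.07, 0.02 without replicate 2 and 0.04 without air replicate 2. Of these genes 0 stood higher and 2 lower without overlap, the latter a share near that of all genes (9.06%). The 2 were H1f0 and Hist1h1c, another linker histone, which was 32.3, 39.6 and 35.6 CPM in air and 27.8, 25.5 and 30.7 CPM at 24 h (-0.36 ± 0.11, edgeR adjusted p = 0.231). H2afz, the H2A.Z variant, was at 0.18 with overlap. Proteins that handle new histones and silent chromatin were among the genes of smallest p on the high side. Hat1, which acetylates newly made histone H4, stood at 53.6, 58.7 and 58.8 CPM in air and 73.8, 72.9 and 70.9 CPM at 24 h (0.35 ± 0.06, adjusted p = 0.112). Cbx5, heterochromatin protein 1α, was 67.7, 77.0 and 84.4 CPM in air and 108, 113 and 112 CPM at 24 h (0.54 ± 0.08, adjusted p = 0.112).

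**Figure D3:**
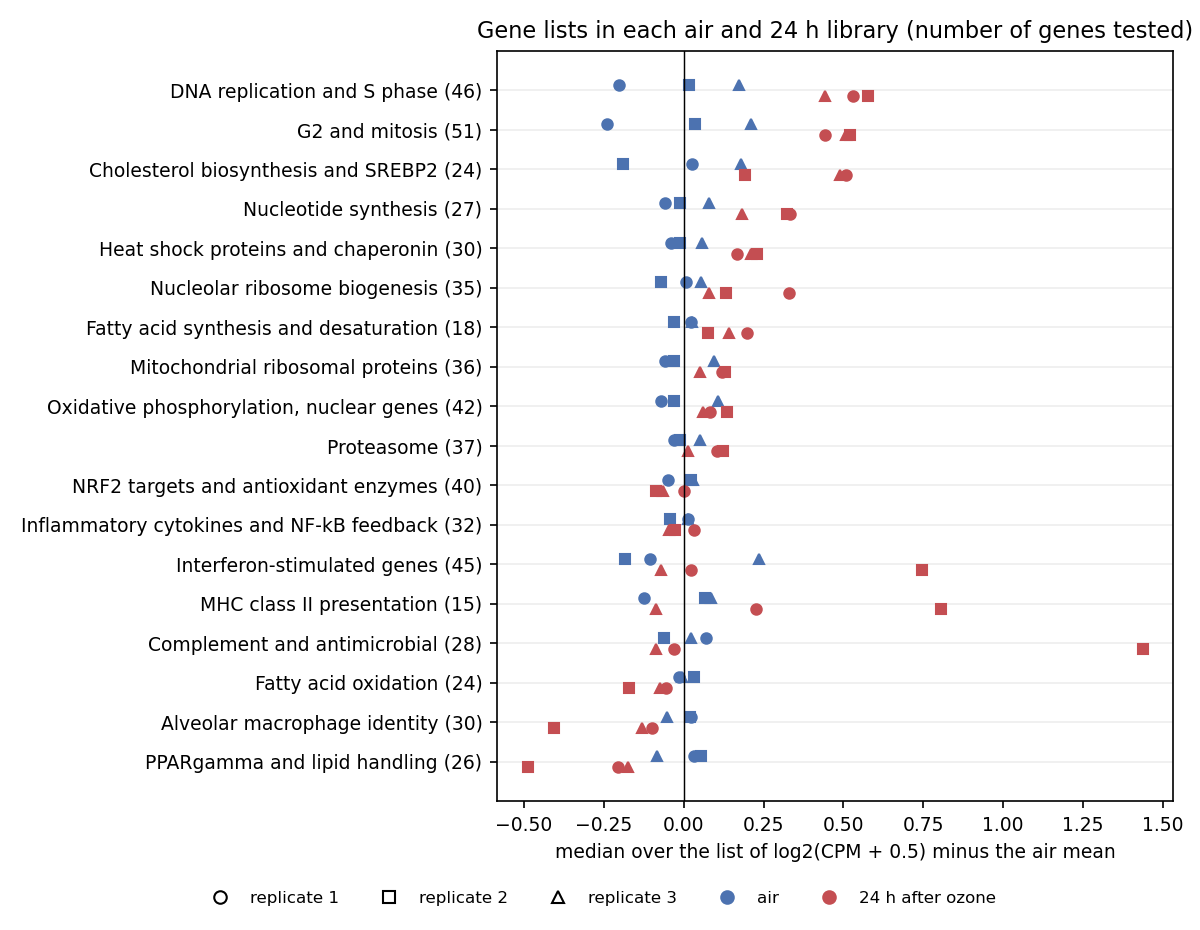
Median over each gene list of log2(CPM + 0.5) minus the air mean, 1 point for each air library (blue) and each 24 h library (red), with the marker shape for the replicate and the number of genes tested in brackets. The replication list lies at 0.44 to 0.58 in all 3 ozone mice, the cholesterol list at 0.51, 0.19 and 0.49, and the interferon, MHC class II and complement lists lie far right in replicate 2 only.

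Genes that make nucleotides were also on the high side. Of 27 nucleotide synthesis genes, 24 were on the positive side, the median was 0.29, 21 were higher and 1 lower without overlap, and DESeq2 called 13 higher. This list shares 1 gene, Tyms, with the replication list. Cad, which starts pyrimidine synthesis, stood at 57.7, 63.3 and 63.3 CPM in air and 83.5, 78.3 and 85.1 CPM at 24 h (0.42 ± 0.07, edgeR adjusted p = 0.112). Mthfd1, an enzyme of folate one-carbon metabolism, was 44.2, 45.0 and 50.7 CPM in air and 65.8, 62.0 and 61.2 CPM at 24 h (0.43 ± 0.07, adjusted p = 0.112). Both genes were apart between the groups in every mouse. The 1 member on the low side without overlap was Cmpk1 (-0.10). Without replicate 2 the list had a median of 0.26, with 21 higher without overlap and 9 called by DESeq2.

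In the list of heat shock proteins and chaperonin, which holds cytosolic and mitochondrial chaperones, 29 of 30 genes had a positive log2 fold change, the median was 0.23, 18 were higher and 0 lower without overlap, and DESeq2 called 8. Without replicate 2 these values were a median of 0.21, 19 higher without overlap and 5 called. Hsp90aa1, the inducible HSP90, was 272, 276 and 289 CPM in air and 386, 408 and 386 CPM at 24 h (0.50 ± 0.08, edgeR adjusted p = 0.112). Stip1, which links HSP70 to HSP90, was 94.6, 95.1 and 96.5 CPM in air and 125, 124 and 119 CPM at 24 h (0.36 ± 0.06, adjusted p = 0.117). The constitutive Hspa8 overlapped between the groups (0.26 ± 0.16). Of the chaperones of the endoplasmic reticulum, Sdf2l1 stood at 53, 46.9 and 53 CPM in air and 65.9, 64.3 and 70.4 CPM at 24 h (0.39 ± 0.06, adjusted p = 0.112), while the unfolded protein response list as a whole had a median of 0.10, which was 0.13 without replicate 2 and 0.04 without air replicate 2.

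Other large sets had small positive medians. Nucleolar ribosome biogenesis had a median of 0.18 over 35 genes, 34 of them positive, but 9 apart and 2 called by DESeq2, and without replicate 2 the median was 0.20 with 13 apart and 3 called. The median relative to air was 0.33, 0.13 and 0.08, highest in replicate 1. Mitochondrial ribosomal proteins (0.12, 9 of 36 apart on the high side), nuclear genes of oxidative phosphorylation (0.09, 7 of 42) and the proteasome (0.08, 8 of 37) each had 0 genes called by DESeq2. Over all genes 10.4% were apart on the high side and 9.06% on the low side, where these 3 lists had 0. Of their members, 31 of 36, 39 of 42 and 35 of 37 were positive, against 52.4% of all genes. Without replicate 2 the medians were 0.11, 0.06 and 0.06. In that comparison 9, 7 and 10 members were apart on the high side and 0, 1 and 0 on the low side, against 14.9% and 14.4% of all genes. Air replicate 3 overlapped the ozone mice in the medians of these 3 lists. Ppa1, which splits the pyrophosphate released in DNA and RNA synthesis, stood out as a single gene at 10.9, 11.3 and 12.9 CPM in air and 16.1, 17.8 and 17.4 CPM at 24 h (0.55 ± 0.09, edgeR adjusted p = 0.112).

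Sterol synthesis genes stood higher as a group, less so in replicate 2 than in the other ozone mice. All 24 tested members of the cholesterol and SREBP2 list were on the positive side, the median was 0.38, 17 were higher and 0 lower without overlap, and DESeq2 called 9. With replicate 2 left out, the median was 0.49, 24 of 24 did not overlap (against 14.9% of all genes) and DESeq2 called 18. The median relative to air was 0.51, 0.19 and 0.49 in the ozone mice, and 0.03, -0.19 and 0.18 in the air mice, so that replicate 2 lay close to the highest air mouse. Air replicate 2 was the lowest of its group, and without it the median was 0.27.

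Pmvk, which makes mevalonate diphosphate, had the smallest p of the list. It was 29.3, 29.9 and 34.1 CPM in air and 42.1, 39.6 and 43.4 CPM at 24 h (0.42 ± 0.08, edgeR adjusted p = 0.117). Idi1, which isomerises isopentenyl diphosphate, was 84.7, 66.5 and 95.5 CPM in air and 144, 111 and 127 CPM at 24 h (0.63 ± 0.15, adjusted p = 0.146). Lss, which closes the sterol rings to lanosterol, was 35.0, 30.2 and 36.8 CPM in air and 53.8, 39.0 and 52.2 CPM at 24 h (0.51 ± 0.13, adjusted p = 0.174, and 0.64 with adjusted p = 0.128 without replicate 2). None of these genes overlapped, although in Lss replicate 2 lay just above the highest air mouse. Hmgcs1, an early enzyme of the pathway, overlapped because of replicate 2, at 183, 158 and 203 CPM in air and 238, 183 and 242 CPM at 24 h.

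The letters TCACCCCA, the core of a sterol regulatory element, were searched in the same windows and occurred in 2 of 17 list members with an entry (11.8%) and in 158 of 10760 tested genes (1.47%). Both members are shown because they are the only ones of the list with this string, which is marked in capitals.
Srebf2 (chr15:82147077-82147144, + strand): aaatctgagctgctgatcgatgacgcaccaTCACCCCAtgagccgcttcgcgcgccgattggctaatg
Hmgcs1 (chr13:119690184-119690251, + strand): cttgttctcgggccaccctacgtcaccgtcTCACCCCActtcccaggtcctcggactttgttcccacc
Srebf2, which encodes SREBP2 itself, was 134, 126 and 158 CPM in air and 171, 175 and 173 CPM at 24 h (0.31). The other 15 members lacked this exact string in the 250 bases, which says nothing of other forms of the element.

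Fatty acid synthesis was less uniform. The list of 18 tested genes had a median of 0.17, with and without replicate 2, and 5 were higher and 1 lower without overlap. DESeq2 called 4 higher and 1 lower, and without replicate 2 it called 7 higher and 0 lower. Next to Fasn, described above, the desaturase genes Fads2 and Fads1 had the smallest p. Fads2 was 2.38, 1.57 and 2.66 CPM in air and 6.41, 9.07 and 7.21 CPM at 24 h (1.78 ± 0.29, edgeR adjusted p = 0.112), and Fads1 was 14.8, 13.6 and 14.7 CPM in air and 20.2, 17.5 and 18.3 CPM at 24 h (0.38 ± 0.09, adjusted p = 0.141). Dgat1, which finishes triglyceride synthesis, was the member on the low side, at 29.2, 27.0 and 37.0 CPM in air and 24.5, 20.4 and 23.5 CPM at 24 h (-0.45, adjusted p = 0.193).

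Of the glycolysis and pentose phosphate list, the glucose transporter Slc2a1 had the smallest p. It was 17.3, 15.5 and 18.5 CPM in air and 25.8, 28.6 and 26.4 CPM at 24 h (0.65 ± 0.09, edgeR adjusted p = 0.112). The whole list of 26 had a median of 0.10, and 0.08 without replicate 2. In it 6 genes stood higher and 0 lower without overlap, and DESeq2 called 2 higher. Pfkm, a muscle-type phosphofructokinase and the member of highest fold change (0.81), was 1.40, 0.947 and 1.68 CPM in air and 1.26, 4.65 and 1.16 CPM at 24 h, high in replicate 2 alone (-0.15 without it). Pgk1, a glycolytic kinase, was 170, 163 and 194 CPM in air and 203, 223 and 203 CPM at 24 h (0.26 ± 0.08, adjusted p = 0.225). The citric acid cycle had a median of 0.02 over 20 genes, and 0.04 without either replicate 2 or air replicate 2.

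Lipid-handling genes of the alveolar macrophage lay lower as a group, most of all in replicate 2. Of 26 PPARγ and lipid-handling genes, 23 had a negative log2 fold change, the median was -0.32, and 12 were lower and 1 higher without overlap, against 9.06% and 10.4% of all genes. DESeq2 called 5 lower and 1 higher. Without replicate 2, 17 were negative and 9 positive, and the median was -0.21. In that comparison 12 were lower and 5 higher without overlap, against 14.4% and 14.9% of all genes. DESeq2 then called 3 lower and 1 higher. The median relative to air was -0.20, -0.49 and -0.17 in the ozone mice and 0.03, 0.05 and -0.08 in the air mice, so that the ozone mice lay below the air mice also without replicate 2.

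Krt79, a keratin that marks alveolar macrophages in mice, was 543, 621 and 553 CPM in air and 432, 324 and 385 CPM at 24 h (-0.59 ± 0.12, edgeR adjusted p = 0.120). Gpd1, which makes glycerol 3-phosphate, was 38.1, 34.3 and 30.8 CPM in air and 26.4, 21.1 and 27.3 CPM at 24 h (-0.47 ± 0.11, adjusted p = 0.135). Ear1, an eosinophil-type ribonuclease made by these cells, was 717, 785 and 611 CPM in air and 500, 453 and 495 CPM at 24 h (-0.55 ± 0.14, adjusted p = 0.163). The 3 genes were apart between the groups, and replicate 2 was the lowest of the ozone mice in each. The receptor gene Pparg itself was 212, 227 and 217 CPM in air and 191, 166 and 195 CPM at 24 h (-0.25 ± 0.09, adjusted p = 0.269). The scavenger receptor Cd36 was 488, 550 and 401 CPM in air and 336, 265 and 384 CPM at 24 h (-0.55 ± 0.16, adjusted p = 0.213). Lipoprotein lipase Lpl overlapped, at 3696, 3684 and 2955 CPM in air and 3179, 2288 and 2760 CPM at 24 h (-0.33, and -0.21 without replicate 2).

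With all 3 ozone mice, the sole member of the list that lay higher without overlap was Car4, a membrane-bound carbonic anhydrase. Without replicate 2, 5 members did. It was 460, 303 and 532 CPM in air and 714, 630 and 790 CPM at 24 h (0.72 ± 0.19, edgeR adjusted p = 0.176). Air replicate 2 was the lowest library, and without it the log2 fold change was 0.52.

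The 30 genes of alveolar macrophage identity, 7 of which are also in the PPARγ list, had a median of -0.21, and -0.11 without replicate 2. Of the 30, 11 were lower and 1 higher without overlap. The 15 resident markers given above share 13 genes with this list and 8 with the PPARγ list, so the 3 lists are not independent. Siglecf, the sialic acid lectin used to recognise these cells, was 529, 448 and 438 CPM in air and 379, 231 and 332 CPM at 24 h (-0.59, edgeR adjusted p = 0.209). The chitinase-like Chil3 was 24837, 22245 and 24041 CPM in air and 18861, 14809 and 21678 CPM at 24 h (-0.36 ± 0.15, adjusted p = 0.325, and -0.23 without replicate 2). Replicate 2 was again lowest in both. In that library the B cell, T cell and serous cavity markers given above took up part of the counts, and their part in its lower macrophage values was not tested. Mrc1 and Marco, scavenging receptors of the same cells, overlapped between the groups, at -0.27 ± 0.17 and -0.20 ± 0.10. Mrc1 was at -0.09 without replicate 2, and Marco at -0.12 without air replicate 2. Fatty acid oxidation had 21 of 24 members negative, with a median of -0.11, 7 lower and 0 higher without overlap, and 2 called lower by DESeq2. With replicate 2 left out, 20 of 24 were negative, the median was -0.07 and DESeq2 called 0. In that comparison 8 were lower and 1 higher without overlap, against 14.4% and 14.9% of all genes.

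**Figure D4:**
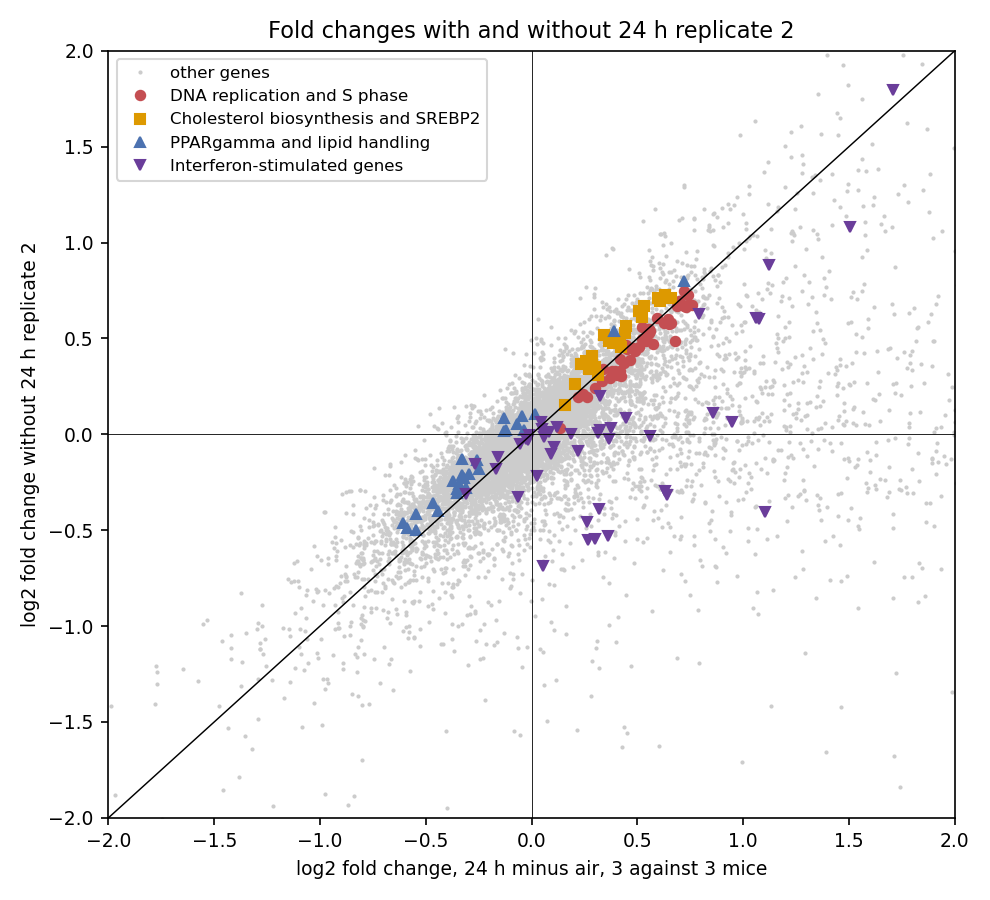
Log2 fold change of 24 h against air with all 3 ozone mice (horizontal) and without replicate 2 (vertical) for 15699 genes in both fits, of which 627 lie outside the axes at -2 and 2; the diagonal marks equal values. Replication genes lie on the diagonal, cholesterol genes above it, PPARγ and lipid genes mostly above it on the low side, and interferon genes spread to its right.

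Further genes of smallest p on the low side came from outside the groups above. Slpi, a secreted inhibitor of neutrophil proteases, was 234, 198 and 236 CPM in air and 147, 164 and 136 CPM at 24 h (-0.58 ± 0.09, edgeR adjusted p = 0.112, and 0.103 without replicate 2). Dpep2, a dipeptidase that acts on leukotriene D4, was 169, 161 and 140 CPM in air and 104, 96.3 and 112 CPM at 24 h (-0.59 ± 0.09, adjusted p = 0.112). The zinc finger gene Zscan26 was 90.2, 86.3 and 81.2 CPM in air and 61.5, 57.9 and 68.7 CPM at 24 h (-0.45 ± 0.07, adjusted p = 0.112). All 3 were apart between the groups, replicate 2 included. The growth factor Igf1 was 18.9, 18.4 and 23.2 CPM in air and 13.2, 13.4 and 14.4 CPM at 24 h (-0.56 ± 0.10, adjusted p = 0.117). Egfem1 was 5.49, 6.43 and 3.86 CPM in air and 1.54, 1.71 and 2.40 CPM at 24 h (-1.48 ± 0.25, adjusted p = 0.117). In the same set Snapin, Cox6b2, Zfp715, Aldh6a1 and Cela1 had log2 fold changes of -0.53 to -0.36 and an adjusted p = 0.117 each.

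On the high side the genes of smallest p outside the groups above were Jpt2, Trmt10a, Slfn9 and Susd1. Jpt2, a microtubule-associated protein also described as a receptor for the calcium messenger NAADP, was 67.4, 70.5 and 71.7 CPM in air and 95.0, 88.5 and 92.0 CPM at 24 h (0.39 ± 0.05, edgeR adjusted p = 0.112). Slfn9, of the Schlafen family, was 31.6, 38.7 and 37.6 CPM in air and 61.7, 50.7 and 56.6 CPM at 24 h (0.65 ± 0.10, adjusted p = 0.112). The tRNA methyltransferase Trmt10a was 3.56, 3.69 and 3.91 CPM in air and 6.19, 6.92 and 5.86 CPM at 24 h (0.76 ± 0.11, adjusted p = 0.112). The groups were apart in all of these. Without replicate 2 the set of smallest p gained Alg8, a glucosyltransferase of N-glycan assembly, and Ncapg2, a condensin II subunit. Alg8 was 23.1, 23.1 and 23.4 CPM in air and 31.7, 27.5 and 30.5 CPM at 24 h. Ncapg2 was 49.5, 52.6 and 56.6 CPM in air and 69.8, 61.3 and 73.1 CPM at 24 h. In both genes replicate 2 lay closest to air.

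The genes of the daily clock split into both directions, and again replicate 2 differed from the other ozone mice. Of 25 clock and clock-output genes tested, 5 stood higher and 5 lower without overlap, and the median was -0.07 (-0.05 without replicate 2). DESeq2 called 4 higher and 1 lower, and without replicate 2, 2 higher and 2 lower. The whole list was looked at gene by gene after its values were seen. Arntl, which encodes the activator BMAL1, was 17.0, 12.8 and 12.4 CPM in air and 7.11, 12.3 and 7.12 CPM at 24 h. Its repressor Nr1d1 was 28.1, 20.8 and 20.1 CPM in air and 44.5, 27.7 and 51.5 CPM at 24 h. In replicates 1 and 3 Arntl was below every air mouse and Nr1d1 above every air mouse, while replicate 2 sat at the edge of the air range for both genes. The log2 fold change of Arntl was -0.67 ± 0.24 (edgeR adjusted p = 0.272) and -0.98 ± 0.16 without replicate 2 (adjusted p = 0.131). For Nr1d1 the values were 0.84 ± 0.25 (adjusted p = 0.216) and 1.06 ± 0.19 (adjusted p = 0.136).

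The second REV-ERB gene, Nr1d2, was 56.3, 56.9 and 61.8 CPM in air and 80.0, 71.5 and 91.0 CPM at 24 h (0.47 ± 0.10, edgeR adjusted p = 0.120). Dbp, an output gene driven by BMAL1, was 0.926, 2.64 and 2.25 CPM in air and 4.44, 7.38 and 5.61 CPM at 24 h (1.58 ± 0.42, adjusted p = 0.176). Its relative Tef was 31.0, 70.3 and 60.4 CPM in air and 82.7, 91.8 and 95.0 CPM at 24 h (0.74 ± 0.27, adjusted p = 0.289). These 3 genes and Per3 (0.75 ± 0.21) were apart between the groups with replicate 2 included. Air replicate 1 was the lowest library in Dbp, Tef and Per3. With 1 of the 9 libraries left out at a time, their lowest log2 fold changes were 1.24, 0.45 and 0.52 in that order. Nfil3, which competes with these output factors for their sites, lay lower at 37.3, 39.1 and 43.2 CPM in air and 24.5, 25.4 and 35.3 CPM at 24 h (-0.49 ± 0.20, adjusted p = 0.32). Per1 varied more within groups than between them, at 73.3, 91.7 and 111 CPM in air and 47.1, 74.2 and 130 CPM at 24 h. The labels give no hour of collection, so time of day and exposure cannot be told apart for these genes.

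The cold-inducible RNA-binding proteins, on the same list, had the pattern of Arntl. Cirbp was 20.8, 19.3 and 19.8 CPM in air and 12.3, 20.6 and 12.3 CPM at 24 h (-0.41 ± 0.28, edgeR adjusted p = 0.483, and -0.70 without replicate 2, with -0.70 ± 0.07 and adjusted p = 0.0241 without both lymphocyte-carrying libraries). Rbm3 was 406, 391 and 458 CPM in air and 315, 385 and 299 CPM at 24 h (-0.33 ± 0.10, adjusted p = 0.231, and -0.45 with adjusted p = 0.131 without replicate 2). In both genes replicates 1 and 3 lay far below air and replicate 2 lay within or next to the air range. At 72 h Cirbp stood at 24.5, 13.2 and 13.4 CPM, and the high library there was replicate 1, the other one with lymphocyte markers.

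The E-box letters CACGTG, to which BMAL1 and CLOCK bind, were searched for after these values were seen. They were present in the 250 bases before a start in 5 of 19 clock genes with an entry (26.3%) and in 1029 of 10760 tested genes (9.56%). The stretch of Tef is shown as the clock gene of smallest p with this string outside annotated exons, with the string in capitals. The chromosome left out of the E2F choice was left out here too.
Tef (chr15:81811246-81811311, + strand): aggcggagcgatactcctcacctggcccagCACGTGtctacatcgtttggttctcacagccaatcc

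**Figure D5:**
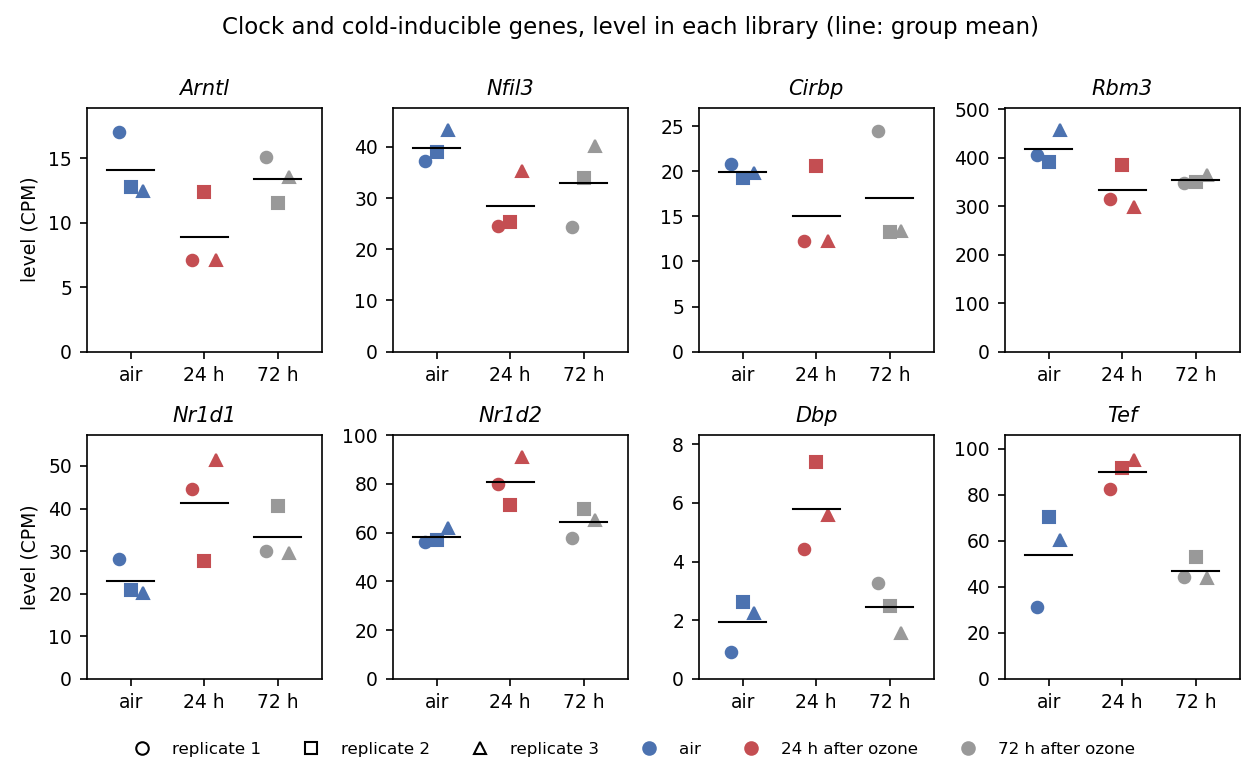
Level in CPM of 8 clock and cold-inducible genes in each library, by group, with the marker shape for the replicate and a line at the group mean. In Arntl, Cirbp and Rbm3 the 24 h square (replicate 2) lies at or next to the air level and the other 2 ozone mice below it, while Nr1d2, Dbp and Tef are higher in all 3 ozone mice.

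Inflammatory genes as a list stood near the median of all genes. The list of inflammatory cytokines and NF-κB feedback genes had a median of 0.02 over 32 genes, with 5 higher and 4 lower without overlap, and DESeq2 called 1 in each direction. The median was -0.01 without replicate 2 and -0.02 without air replicate 2. Socs3, which dampens cytokine signalling, was 9.14, 4.67 and 10.05 CPM in air and 13.4, 14.9 and 17.9 CPM at 24 h (0.95 ± 0.30, edgeR adjusted p = 0.231). Il1rn, the interleukin-1 receptor antagonist, lay lower at 274, 290 and 256 CPM in air and 234, 192 and 217 CPM at 24 h (-0.35 ± 0.10, adjusted p = 0.209). Interleukin-6 (Il6), Cxcl1 and Ccl2 stayed under 0.6 CPM in all 6 libraries, and Il10 had 0 to 6 counts and was not tested. Cxcl2 overlapped between the groups at 5.10, 3.43 and 3.68 CPM in air and 3.88, 2.73 and 3.04 CPM at 24 h.

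Among chemokines, Cxcl10 was 0.866, 0.592 and 0.599 CPM in air and 2.76, 1.96 and 2.00 CPM at 24 h (1.71 ± 0.24, edgeR adjusted p = 0.112, and 1.80 without replicate 2). The chemokine list as a whole had a median of 0.27 over 25 genes, 0.11 without replicate 2 and 0.08 without air replicate 2. Cxcl10, a T cell attractant, is also 1 of the 45 interferon-stimulated genes tested. It was the only one of them that stood higher without overlap, against 10.4% of all genes. Of the 45, 4 stood lower, a share near that of all genes (9.06%). That list had a median of 0.27, which was -0.02 without replicate 2 and 0.05 without air replicate 2. Its median relative to air was 0.02, 0.75 and -0.07, high in replicate 2 alone. MHC class II genes had a median of 0.35 and 0.04 without replicate 2, and complement and antimicrobial genes 0.75 and -0.06. In these 3 groups the median was close to 0 without replicate 2, and in the interferon and complement groups it turned negative. Cxcr2, a neutrophil chemokine receptor, was 6.28, 5.43 and 5.82 CPM in air and 8.81, 9.18 and 7.88 CPM at 24 h (0.56 ± 0.12, adjusted p = 0.120).

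Antioxidant genes did not stand higher 24 h after this oxidant exposure. Of 40 NRF2 targets and antioxidant enzymes, 18 had a positive and 22 a negative log2 fold change, and the median was -0.04. Without overlap 1 stood higher and 4 lower, against 10.4% and 9.06% of all genes. Without replicate 2 the median was -0.03, with 4 higher and 7 lower, against 14.9% and 14.4% of all genes. Without air replicate 2 the median was -0.01. Hmox1, heme oxygenase 1, was 221, 219 and 209 CPM in air and 168, 142 and 166 CPM at 24 h (-0.45 ± 0.12, edgeR adjusted p = 0.176). Mgst1, a membrane-bound glutathione transferase, was 239, 263 and 246 CPM in air and 189, 166 and 181 CPM at 24 h (-0.48 ± 0.11, adjusted p = 0.124). Both lay below air in all 3 ozone mice. Prdx6, a peroxiredoxin that is also a surfactant phospholipase, was the member on the high side, at 49.8, 51.9 and 53.5 CPM in air and 63.1, 67.3 and 58.0 CPM at 24 h (0.28 ± 0.07, adjusted p = 0.163). The classical targets Nqo1 (-0.61 ± 0.26, and -0.31 without air replicate 2), Gclm (-0.21 ± 0.10), Srxn1 (-0.08 ± 0.16) and Txnrd1 (0.05 ± 0.13) were not called. Without replicate 2 Gclm was at -0.12, Srxn1 at 0.02 and Txnrd1 at 0.17. The median was -0.01 over 31 genes of the ATF4 stress response (0.04 without replicate 2 and 0.0018 without air replicate 2), and 0.13 over 28 p53 targets (0.07 without replicate 2).

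In other lists the medians lay between -0.09 and 0.10, for LXR targets, scavenger receptors, lysosome, iron handling, immediate early genes, pattern recognition receptors, alternative activation, prostaglandin synthesis and matrix genes. They lay between -0.07 and 0.06 without replicate 2 and between -0.13 and 0.05 without air replicate 2. In the pattern recognition list Fpr2, a formyl peptide receptor, was 281, 277 and 256 CPM in air and 188, 179 and 203 CPM at 24 h (-0.52 ± 0.12, edgeR adjusted p = 0.144). In the lysosomal list Ctsc, a protease that activates serine proteases, was 1167, 1081 and 1109 CPM in air and 1520, 1159 and 1385 CPM at 24 h, with replicate 2 inside the air range (0.28 ± 0.11, adjusted p = 0.309, and 0.38 with adjusted p = 0.179 without replicate 2). Retnla, a secreted protein of alternatively activated macrophages, was 105 CPM in replicate 2 and at most 1.21 CPM in the other 5 libraries. Egr1, an immediate early gene, was 12.3 CPM in replicate 2 and at most 5.65 CPM in the other 5.

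Markers of other cells are given by list. B cell markers had a median log2 fold change of 7.52, and 1.95 without replicate 2, while most of their summed level in air was Cd22, which macrophages share (169, 176 and 156 CPM in air and 158, 181 and 155 CPM at 24 h). Of the 17 tested, 13 were higher without overlap, with and without replicate 2, against 10.4% and 14.9% of all genes. Outside replicate 2 the differences were small in CPM. Ighm was 1.00, 1.56 and 1.46 CPM in air and 4.30, 740 and 1.77 CPM at 24 h. T cell markers had a median of 5.07 and 0.01, and serous cavity macrophage markers 3.04 and -0.04. Erythroid markers were higher in all 3 ozone mice than in any air mouse, at summed levels of 99.2, 148 and 84.1 CPM in air and 927, 2994 and 202 CPM at 24 h (median log2 fold change 4.72, and 3.27 without replicate 2). The α-globin gene Hba-a1 was 8.76, 20.3 and 6.50 CPM in air and 221, 728 and 36.4 CPM at 24 h (4.79 ± 2.08, edgeR adjusted p = 0.346), although red cells had been lysed before RNA extraction. Neutrophil markers summed to 147, 163 and 140 CPM in air and 165, 260 and 145 CPM at 24 h (median 1.34, and 0.66 without replicate 2). The granule genes S100a9 and Ngp stood at 2.30, 39.4 and 1.88 CPM and at 0.821, 14.5 and 0.548 CPM at 24 h, compared with at most 0.333 and 0.0499 CPM in air. Natural killer cell markers had a median of 4.11 and -0.26 without replicate 2, interstitial macrophage markers 2.57 and -0.13, monocyte markers 0.53 and -0.04, dendritic cell markers 0.38 and 0.03 (0.21 without air replicate 2), endothelial and fibroblast markers 1.21 and -0.09 (0.66 without air replicate 2), and mesothelial markers 0.52 and -0.18. Of the eosinophil, basophil and mast cell markers only 2 were tested. Epithelial markers summed to 480, 483 and 503 CPM in air and 559, 491 and 501 CPM at 24 h (median 0.24, 0.29 without replicate 2 and 0.39 without air replicate 2). The part of these cells in the results above was not tested beyond leaving out the libraries named.

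In replicate 2, 643 genes at 1 CPM or more were at least 4-fold above the highest of the other 5 air and 24 h libraries, and 361 of them at least 10-fold. Among those of largest ratio at 20 CPM or more were Prg4 (317 CPM, against at most 0.832 CPM), Myb (73.4 CPM), Ltbp1 (38.9 CPM), Satb1 (201 CPM), Cd8a (138 CPM), Cd8b1 (89.4 CPM), Nsg2 (26.7 CPM), Cd79b (122 CPM) and Ighm (740 CPM). Prg4, which encodes the joint lubricant lubricin, is also made by macrophages of the peritoneal and pleural cavities. Cd8a and Cd8b1, with Satb1 and Myb, are T cell and thymocyte genes, and Ighm and Cd79b are B cell genes. Of the 422 genes that DESeq2 called higher with all libraries, 18 were at least 2-fold above the other 5 libraries in replicate 2.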

How the data were processed

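Total RNA from lung lavage cells of 9 mice was sequenced, and the 3 air, 3 24 h and 3 72 h libraries were grouped by their labels. The deposited table holds estimated counts per gene, made by the authors with Salmon on GRCm38.p6 after Trimmomatic 0.39 and FastQC, per the submitters' processing notes. Of its values 80.5% were whole; of the annotation release and strand setting the sources used here say nothing. Counts were rounded, genes were filtered with filterByExpr, and all 9 libraries entered 1 edgeR 4.0.16 quasi-likelihood fit (R 4.3.3, robust, TMM scaling, group as the only term) from which 24 h minus air was taken. p-values were adjusted by Benjamini-Hochberg over all genes tested and called at 0.05. The ± after a log2 fold change is its standard error, the fold change divided by the root of F. DESeq2 1.42.0 and limma 3.58.1 voom were alternatives, next to other scalings and filters, the replicate block, fits on fewer libraries and each library left out in turn. All were fitted without replicate 2 at 24 h as well. The edgeR procedure was also run on simulated counts with known fold changes. No lymphocyte-carrying library was simulated, so that run cannot show how the procedure performs with such libraries.

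Each mean level is in CPM, and list medians per library use log2(CPM + 0.5). Groups are called apart, or not overlapping, when every library of one lies beyond every library of the other. There were 36 functional and 14 cell type lists, with 1205 of 1211 symbols found in the table. The members and lists were chosen with earlier results of these data known. Named genes were the called genes, the 12 of smallest p per direction (8 without replicate 2) at 5 CPM or more with groups apart, the 3 members of smallest p and the most abundant member of each list, a fixed set of well-known genes, and the 10 genes of largest ratio in replicate 2. Others are named for their place in a list, after their values were seen. Promoter windows came from RefSeq (GRCm38.p6), matched by symbol. Libraries of 47095543 to 60248305 counts limit precision mainly for genes under 1 CPM, and no library pair of a group agreed within sampling noise. A few genes that this rule covers are not reported here.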

Additional observations from a re-analysis of the deposited data

How the results depend on the processing

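The number of called genes, 1 with all 9 libraries and 2 without replicate 2 at 24 h, was the same with RLE or upper-quartile scaling, with a filter of 1 CPM in 3 libraries, and without mitochondrial and the 10 most abundant genes. With no filter on low counts it was 0 and 37, with DESeq2 618 and 419, with limma voom 1 and 0, and with only air and 24 h libraries 0 and 0. Without both lymphocyte-carrying libraries it was 7, and 24 on the genes of the 9-library fit. With each library left out in turn it ranged from 0 to 2, and from 0 to 7 starting without replicate 2; the highest values came without replicate 2 at 24 h and without replicate 1 at 72 h. With the replicate block 0 genes were called in both, where 2314 and 1741 had an unadjusted p under 0.05 in the unblocked edgeR fits. Deviations from the group mean in same-numbered air and 24 h libraries had correlations of 0.187, -0.166 and -0.20. Those of differently numbered libraries ranged from -0.262 to 0.262. With 3 libraries per group, such correlations cannot decide whether the numbers pair the mice, and the labels do not say so. H1f0 had an adjusted p of 0.284 under the block. The cause was not tested.

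Log2 fold changes that turned sign did so mostly without 1 mouse. Leaving out each library, Cd37 ranged from -0.46 to 0.98, Prg4 from -0.22 to 7.72, Pfkm from -0.15 to 1.12, Ltbp1 from -1.01 to 7.47, Nsg2 from -0.19 to 7.47, Srxn1 from -0.31 to 0.023, Txnrd1 from -0.14 to 0.17, Per1 from -0.62 to 0.14, Cd22 from -0.091 to 0.015, Ccl2 from -0.024 to 0.54, Cxcl1 from -0.28 to 0.068, Il6 from -0.61 to 0.33, Kdm6a from -0.055 to 0.43 and Xist from -0.13 to 1.10. Without both lymphocyte-carrying libraries, on the genes of the 9-library fit, the values were -0.46 for Cd37, -0.15 for Pfkm, -1.01 for Ltbp1, -0.19 for Nsg2, -0.21 for Prg4 and 0.024 for Srxn1, and with the filter applied anew the last was 0.0242. Depth limits genes below 1 CPM, such as Il6, Cxcl1 and Ccl2.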
